A study of Mus musculus with 13 samples.

Results

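The 10 genes described here are the myogenic transcription factors and fusion genes Pax7, Myf5, Myod1, Myog, Myf6, Mef2a, Mef2c, Mef2d, Mymk and Mymx, taken by their Ensembl identifiers from a table of 55642 genes. All 10 were in the table, and 8 were among the 16848 genes that passed the filter on low counts and were tested. RNAseq libraries were made from C2C12 cells, a mouse myoblast line that fuses into myotubes after a change of medium. Cells were transfected with nontargeting siRNA (control KD) or with siRNA to YBX3 (YBX3 KD), a Y-box protein that binds DNA and RNA. They were kept in medium with fetal bovine serum (0 day, proliferating) or moved for the last day to medium with horse serum (1 day, differentiating), and all were harvested at the same time after transfection. The 13 libraries were control KD 0 day replicates A to D, control KD 1 day replicates C and D, YBX3 KD 0 day replicates A to D and YBX3 KD 1 day replicates B to D. All groups therefore carried a transfected siRNA and came from a single line.

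Skeletal muscle identity is set by a small family of basic helix-loop-helix (bHLH) factors. Pax7 marks the satellite cell, the stem cell of adult muscle. Myf5 and Myod1 mark the committed myoblast, and Myog and Myf6 act as the cell leaves the cycle and differentiates. These bHLH factors bind E-boxes in DNA as dimers with E proteins and work together with MEF2 factors, of which Mef2a, Mef2c and Mef2d are measured here. Myomaker (Mymk) and myomixer (Mymx) are membrane proteins that bring about the fusion of myoblasts, and both are classical targets of the myogenic factors.

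The sequences just before the start of the canonical transcript are shown for Myod1 and Mymk, which had the largest differences between siRNAs that recurred in every matched pair, and for Myog, whose level was set apart in a single library. Capitals mark E-boxes (CANNTG) and the CCAAT box (CCAAT, or ATTGG on the other strand), the motif after which Y-box proteins were named. The stretches lie on GRCm39 at chr7:46025620-46025869 (plus strand), chr2:26962229-26962378 (minus strand) and chr1:134217557-134217706 (plus strand), each ending 1 base before the transcript.
Myod1: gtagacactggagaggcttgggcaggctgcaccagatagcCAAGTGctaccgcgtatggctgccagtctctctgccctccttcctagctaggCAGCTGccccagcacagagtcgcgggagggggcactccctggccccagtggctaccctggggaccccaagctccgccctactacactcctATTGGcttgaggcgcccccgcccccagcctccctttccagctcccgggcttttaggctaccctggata
Mymk: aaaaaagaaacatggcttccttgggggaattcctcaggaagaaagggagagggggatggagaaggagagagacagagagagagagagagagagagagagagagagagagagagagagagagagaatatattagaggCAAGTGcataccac
Myog: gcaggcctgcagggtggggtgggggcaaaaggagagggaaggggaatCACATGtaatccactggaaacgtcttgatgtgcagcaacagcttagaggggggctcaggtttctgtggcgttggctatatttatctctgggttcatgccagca

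Myod1 held the E-box CAAGTG from 210 bases and CAGCTG from 158 bases before its start, and ATTGG from 68 bases before it. Mymk held CAAGTG from 14 bases before its start, and Myog held CACATG from 103 bases before it. Over the 250 bases before the start and both strands, 5 of the 10 genes held an E-box (Myod1, Myog, Pax7, Mymk and Mymx), against 60.0% of 12744 tested protein-coding genes with a window read in the same way. A CCAAT box was found for 2 of the 10 (Myod1 and Mef2d) against 37.1% of those genes, and a MEF2 site for 1 of the 10 (Myf6, from 28 bases before its start) against 2.02%. The MEF2 pattern was C or T, then TA, 4 bases of A or T, TA, and A or G, with no base off it. With at most 1 base off it, 2 of the 10 (Myf6 and Myog) had a match, against 19.4% of those genes, the Myog match being ctatatttat from 29 bases before its start. No capital motif overlapped another in these windows. A match of letters is not a measured binding site.

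The study lists 4 duplex siRNAs against mouse YBX3 and does not state which of them entered the RNAseq experiment. Other experiments of the study used a YBX3 siRNA pool or single siRNAs. For 3 of the 4 the listed antisense strand was complementary to the listed sense strand. For the remaining siRNA it was not, and its sense strand equals that listed for a human YBX3 siRNA. The 3 complementary antisense strands, 5′ to 3′, are shown with the seed (bases 2 to 8) in capitals.
YBX3 siRNA a: uAUAGUUGuagggacgucg
YBX3 siRNA b: aUAGUAGCcgcgucuguac
YBX3 siRNA c: aUACUUGCguggguuguuu
The complement of the seed of siRNA c occurred in the 3′ UTR of 1 of the 10 genes (Mef2c) and in 6.75% of 13098 tested 3′ UTRs. The seeds of siRNAs a and b had no complement in the 3′ UTR of any of the 10 genes, against 6.63% and 4.84% of tested 3′ UTRs. Of the 4 listed nontargeting strands, 3 had a seed complement in 3 or 4 of the 10 genes each, and in 24.6% to 31.4% of tested 3′ UTRs. Mef2a was among these genes every time, and the share of tested 3′ UTRs with all 3 complements was not computed. The remaining nontargeting strand had a complement in none of the 10 genes and in 0.641% of tested 3′ UTRs. A seed match is a description of letters, and its part in any value below was not tested.

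Estimated counts summed to 33451547 to 71811371 per library (median 43993711). Levels are given as CPM (the usual read count scaled to library size), with trimmed-mean (TMM) factors of 0.969 to 1.02. Ybx3, the siRNA target, had 28.7 to 71.5 CPM in the 7 YBX3 KD libraries and 264.4 to 346.4 CPM in the 6 control KD libraries, a log2 fold change of −2.81 (SE 0.17, edgeR's quasi-likelihood test, Benjamini-Hochberg adjusted p = 5.26e-06). The cells carried the myoblast genes Itga7 (an integrin), Cdh15 (M-cadherin), Vcam1 and Des (desmin) in every library. Of the 16 satellite cell and myoblast markers, 13 were tested, Pax7 was below the filter, Chodl had at most 3 counts per library and Calcr was at 0 in all 13. Of 21 markers of other lineages, 7 had at most 3 counts in every library, and the summed level of all 21 was 155.5 to 220.4 CPM in control KD and 163.8 to 224.8 CPM in YBX3 KD. Others of the 21 were well expressed, Runx2 at up to 134.8 CPM (YBX3 KD 0 day C) and Sox9 at up to 101.4 CPM (control KD 0 day D). Replicate D stood apart: Mef2c and Myf5 were lowest in D within all 4 groups, as were 21.3% of tested genes and Ybx3 itself, so values are given with and without the 4 D libraries where they matter. A difference in bulk RNA can come from fewer cells of a type or from less RNA per cell, and these cannot be told apart.

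The 10 genes fell into a high set of 3 and a low set of 7 (the plot of levels per kb). Levels between genes are compared as CPM per kb of canonical transcript, as the mean over 13 libraries. Mef2a had 28.95 CPM per kb (SD 4.72, n = 13), Mef2d 28.8 (SD 3.15) and Myf5 25.4 (SD 6.23). These 3 levels overlapped, and neighbours in the order changed places between libraries: Mef2a was above Mef2d in 7 of 13 libraries, and Mef2d above Myf5 in 7 of 13. Myf5 was above Mymk, the next gene, in 13 of 13 libraries, with no overlap of their ranges. Mymk had 1.19 CPM per kb (SD 0.80), Myod1 0.93 (SD 0.48), Mef2c 0.59 (SD 0.25) and Myog 0.38 (SD 0.59). Below these lay Myf6 at 0.12 (SD 0.066), Mymx at 0.047 (SD 0.047) and Pax7 at 0.012 (SD 0.0087). Each of the 7 lower genes overlapped its neighbours in range. Among tested genes the mean level of Mef2a lay at percentile 85.1, Myf5 at 82.9, Myod1 at 27.3, Myog at 17.9 and Myf6 at 7.14. Per kb, Myf5 was above Myod1 in each of the 13 libraries, the highest Myod1 value being 1.76.

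**Figure D1:**
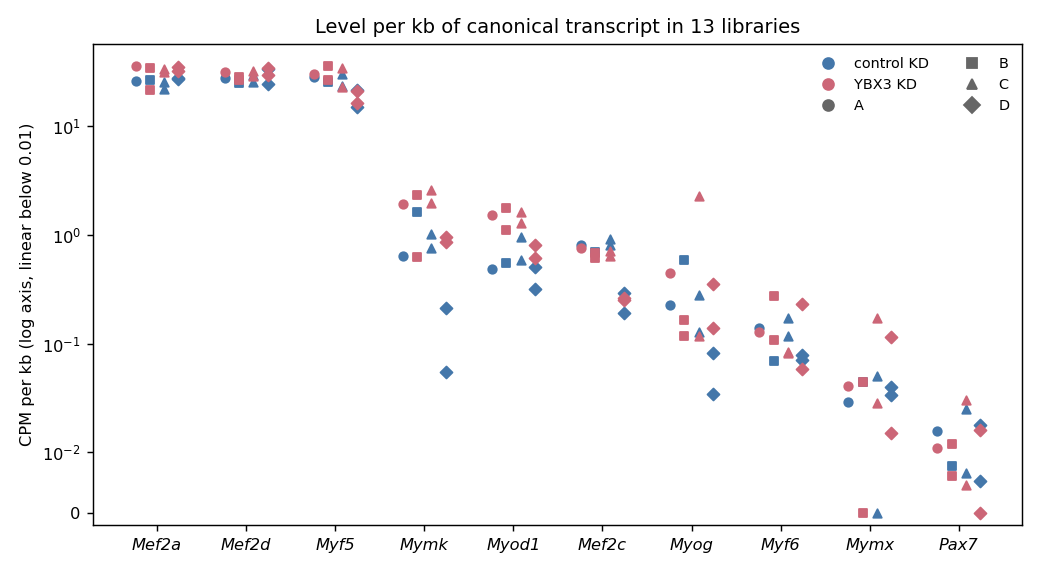
Levels of the 10 genes in CPM per kb of canonical transcript (log axis, linear below 0.01), ordered by the mean over 13 libraries; colours give the siRNA and marker shapes the replicate letter. Mef2a, Mef2d and Myf5 lie above all values of the other 7 genes.

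The first question was whether YBX3 KD changed these genes, with both days combined and the day as a term. Myod1, Mymk and Mef2a were higher in YBX3 KD than in control KD in every pair of libraries that shared a letter and a day (6 of 6 pairs each). Among the other tested genes, Mef2d was higher in 5 of 6 pairs, Myf5 and Myog in 4, Myf6 in 2 and Mef2c in 1. A pair of libraries was formed by the letter in the sample description, for which the main edgeR fit had no term. The rule used for calling was a fold change above 1.3 and an adjusted p under 0.001, the thresholds of the study. By it edgeR called 0 of the 8 genes of the 10 that were tested, against 19 of all 16848 tested genes (0.113%). At an unadjusted p under 0.05 in edgeR, 3 of the 8 stood out (Myod1, Mef2a and Mymk), against 15.6% of all tested genes. DESeq2 and limma-voom called 0 of the 8 each, and DESeq2 with a term for the letter called 1, Myod1. Higher levels in all 6 pairs were found for 9.35% of tested genes, and non-overlapping 0 day groups with YBX3 KD higher for 4.83%.

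**Figure D2:**
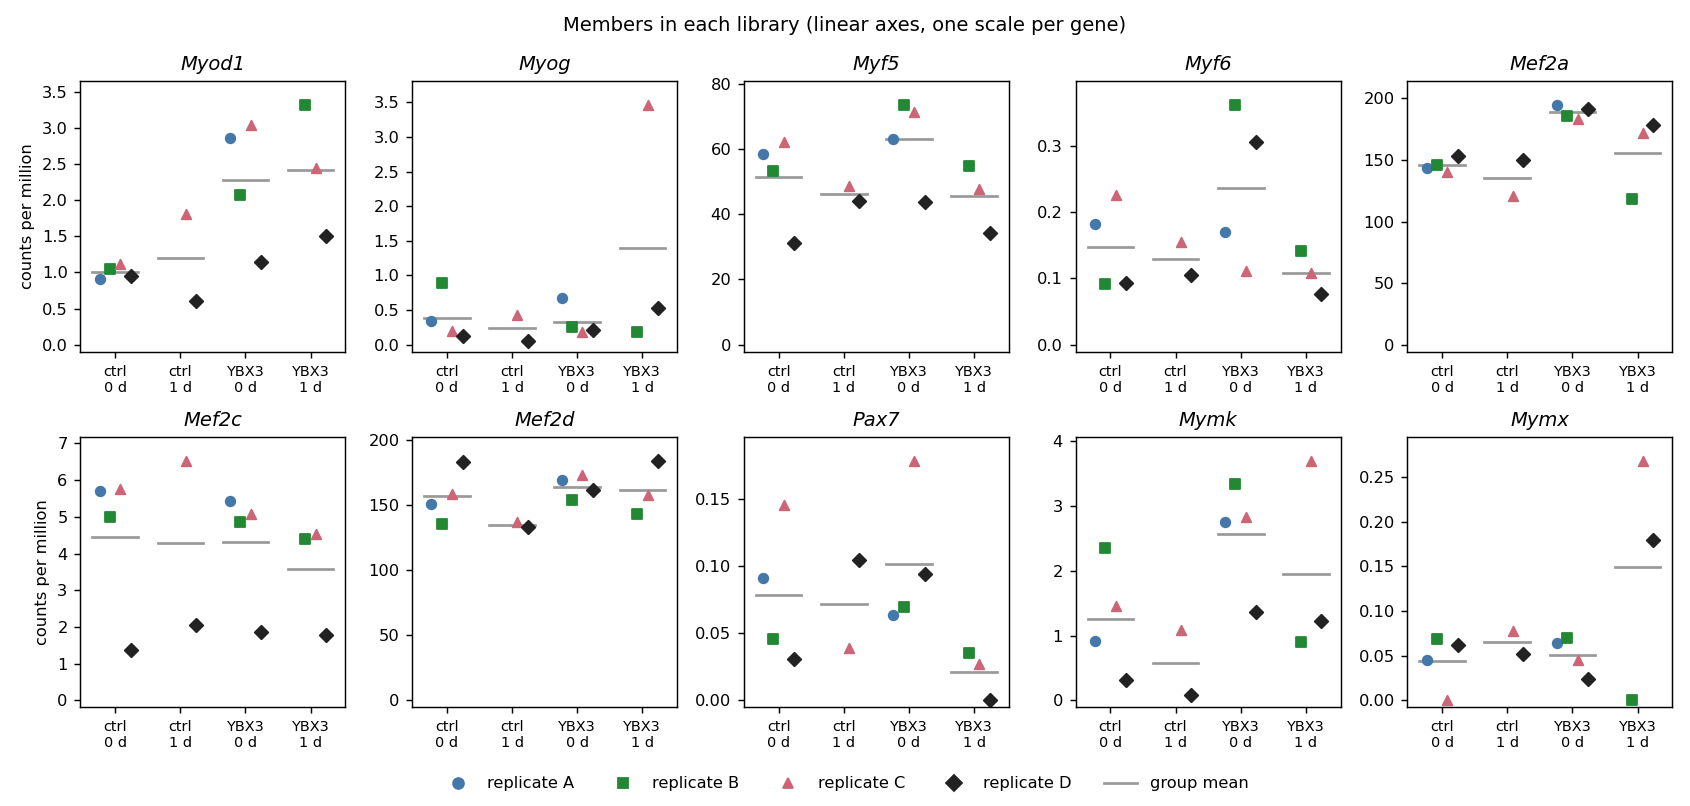
CPM of each gene in each of the 13 libraries, on a linear axis per gene; columns are the 4 groups, marker shapes the replicate letters and grey bars the group means. In Myod1 and Mef2a the 4 YBX3 KD 0 day libraries lie above the 4 control KD 0 day libraries, and in Mef2c the D libraries lie lowest in every group.

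Pax7 (ENSMUSG00000028736, GRCm39 chr4:139464373-139560839, minus strand), which marks the satellite cell, was near the floor of the measurement. Its counts were 4, 2, 9 and 1 in control KD 0 day A to D, 2 and 4 in control KD 1 day C and D, 3, 5, 8 and 4 in YBX3 KD 0 day A to D, and 2, 1 and 0 in YBX3 KD 1 day B to D. The siRNA groups overlapped at 0 day, and at 1 day the 3 YBX3 KD libraries lay below both control KD libraries in CPM (0 to 0.035 against 0.039 and 0.10). YBX3 KD 1 day B and control KD 1 day C had the same 2 counts and differed in CPM by library size only. The share of all tested genes without overlap at 1 day was not computed. The count of 0 allows a level of up to 0.0763 CPM. It did not pass the filter and was not tested.

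Myf5 (ENSMUSG00000000435, chr10:107318769-107321995, minus strand), the first of the bHLH factors to appear in the embryo, was the most abundant of the 4 per kb. At 0 day it had 58.6, 53.2, 62.1 and 31.3 CPM in control KD A to D and 63.1, 73.5, 71.4 and 43.7 CPM in YBX3 KD A to D. At 1 day it had 48.6 and 44.1 CPM in control KD C and D and 54.9, 47.7 and 34.2 CPM in YBX3 KD B to D. D was the lowest library of each group, and the siRNA groups overlapped on both days. The log2 fold change was 0.17 (SE 0.18, edgeR adjusted p = 0.684) over both days, and 0.20 (SE 0.076, adjusted p = 0.114) without the D libraries.

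Myod1 (ENSMUSG00000009471, chr7:46025870-46028526, plus strand), the bHLH factor that can turn fibroblasts into muscle, was higher in YBX3 KD in every pair. At 0 day it had 0.91, 1.05, 1.12 and 0.96 CPM in control KD A to D and 2.86, 2.07, 3.04 and 1.15 CPM in YBX3 KD A to D. At 1 day it had 1.80 and 0.60 CPM in control KD C and D and 3.32, 2.44 and 1.51 CPM in YBX3 KD B to D. The 0 day groups did not overlap, with D the lowest YBX3 KD library, and at 1 day the YBX3 KD D library lay below the control KD C library. Within pairs the ratio of YBX3 KD to control KD ran from 1.20 (0 day D) to 3.14 (0 day A). The log2 fold change over both days was 1.11 (SE 0.29), a mean of 2.34 ± 0.81 CPM (SD, n = 7) against 1.07 ± 0.40 (SD, n = 6). Its adjusted p was 0.0726 with edgeR, 0.0071 with DESeq2 and 0.00526 with limma-voom, each short of the 0.001 used for calling. With the letter as a block it was 0.0155 in edgeR and 7.67e-05 in DESeq2 (log2 fold change 1.06 in both), so the last fit called it. Without the D libraries the log2 fold change was 1.14 (SE 0.20, edgeR adjusted p = 0.00632). Counts behind these values were 23 to 93 per control KD library and 49 to 188 per YBX3 KD library.

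Myog (myogenin, ENSMUSG00000026459, chr1:134217707-134220287, plus strand), which drives the exit of myoblasts into differentiation, had no common direction. At 0 day it had 0.34, 0.89, 0.19 and 0.12 CPM in control KD A to D and 0.68, 0.25, 0.18 and 0.21 CPM in YBX3 KD A to D. At 1 day it had 0.43 and 0.052 CPM in control KD C and D and 0.18, 3.46 and 0.54 CPM in YBX3 KD B to D. YBX3 KD 1 day C, with 129 counts, was the highest library, the next being control KD 0 day B with 39 counts, and the siRNA groups overlapped on both days. The log2 fold change over both days was 0.72 (SE 0.86, edgeR adjusted p = 0.737). It was −4e-04 without YBX3 KD 1 day C and 1.35 without control KD 0 day B. Its annotated span overlaps an opposite-strand long noncoding RNA that was not used here, and the strand setting of the counting is not given in the sources used here.

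Myf6 (ENSMUSG00000035923, chr10:107328712-107330656, minus strand), the bHLH factor of mature fibres, had 3 to 26 counts per library. It passed the filter through YBX3 KD 0 day B (26 counts) and D (13 counts), so its YBX3 KD level at 0 day carries that selection. Its levels were 0.091 to 0.23 CPM at control KD 0 day, 0.10 to 0.16 at control KD 1 day, 0.11 to 0.36 at YBX3 KD 0 day and 0.077 to 0.14 at YBX3 KD 1 day, and the siRNA groups overlapped on both days. The log2 fold change over both days was 0.35 (SE 0.37, edgeR adjusted p = 0.699). Myf6 lies 6716 bases from Myf5 on the same strand of chromosome 10.

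Of the MEF2 factors, which bind DNA beside the bHLH dimers, Mef2a (ENSMUSG00000030557, chr7:66880911-67022606, minus strand) was higher in YBX3 KD in all 6 pairs. At 0 day it had 143.4, 145.8, 140.0 and 153.4 CPM in control KD A to D and 194.7, 186.1, 183.4 and 191.5 CPM in YBX3 KD A to D. At 1 day it had 121.1 and 149.8 CPM in control KD C and D and 118.5, 171.7 and 178.1 CPM in YBX3 KD B to D. The 0 day groups did not overlap, while at 1 day the YBX3 KD B library, which has no control of its letter, was the lowest of all 13. Within pairs the ratio ran from 1.19 to 1.42, and the log2 fold change over both days was 0.31 (SE 0.092, edgeR adjusted p = 0.105), below the 0.379 that a fold change of 1.3 needs. The adjusted p was 0.0315 with the letter block and 0.0335 without the D libraries. Lysmd4, on the opposite strand, overlaps its span and had at most 574 counts per library, against 4971 to 13382 for Mef2a.

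Mef2d (ENSMUSG00000001419, chr3:88049185-88079398, plus strand), the other abundant MEF2 gene, had 132.7 to 183.2 CPM in the 6 control KD libraries (median 143.9) and 142.9 to 184.1 CPM in the 7 YBX3 KD libraries (median 161.1). Its YBX3 KD library was the higher in 5 of 6 pairs, the exception being 0 day D (ratio 0.879), and the siRNA groups overlapped at 0 day but not at 1 day, with 132.7 and 136.9 CPM in control KD. The 1 day groups held 2 and 3 libraries, and the share of all tested genes without overlap there was not computed. The log2 fold change over both days was 0.14 (SE 0.082, edgeR adjusted p = 0.463).

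Mef2c (ENSMUSG00000005583, chr13:83652064-83815555, plus strand), a MEF2 gene of muscle and heart development, separated by letter and not by siRNA. At 0 day it had 5.70, 4.99, 5.75 and 1.36 CPM in control KD A to D and 5.42, 4.85, 5.09 and 1.86 CPM in YBX3 KD A to D. At 1 day it had 6.53 and 2.06 CPM in control KD C and D and 4.39, 4.54 and 1.79 CPM in YBX3 KD B to D. The D libraries had 0.248 to 0.401 of the mean of the other libraries of their group. In 5 of 6 pairs it was lower in YBX3 KD (0.694 to 0.974), and the log2 fold change over both days was −0.13 (SE 0.39, edgeR adjusted p = 0.902) with all libraries and −0.24 (SE 0.11, adjusted p = 0.184) without D.

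**Figure D3:**
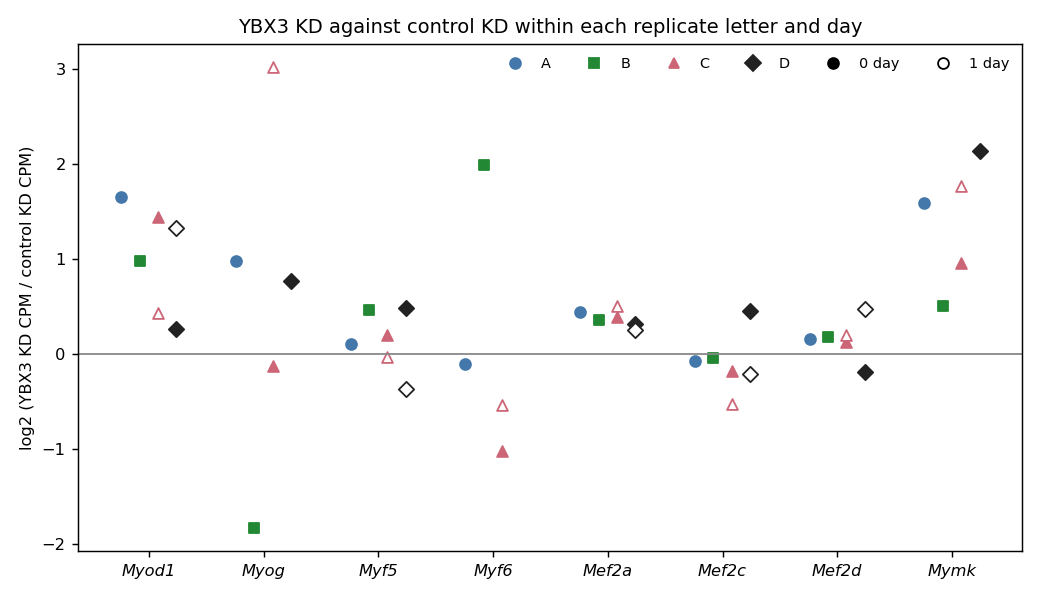
Log2 ratio of YBX3 KD to control KD CPM for each letter and day (filled, 0 day; open, 1 day), leaving out pairs with 3 or fewer counts in either library. All drawn ratios of Myod1, Mef2a and Mymk lie above 0, and those of Myog and Myf6 lie on both sides of it.

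Of the fusion genes, Mymk (ENSMUSG00000009214, chr2:26951627-26962228, minus strand), whose protein lets fibroblasts fuse with myoblasts when they are made to express it, was the higher of the pair in YBX3 KD for all 6 pairs. At 0 day it had 0.91, 2.35, 1.46 and 0.31 CPM in control KD A to D and 2.75, 3.34, 2.83 and 1.36 CPM in YBX3 KD A to D. At 1 day it had 1.09 and 0.078 CPM in control KD C and D and 0.90, 3.70 and 1.23 CPM in YBX3 KD B to D. The groups overlapped on both days, since control KD 0 day B lay above YBX3 KD 0 day D and control KD 1 day C above YBX3 KD 1 day B. The 5 pairs with more than 3 counts in each library had ratios of 1.42 to 4.41, and in the remaining pair the control KD 1 day D library had 3 counts against 48. The log2 fold change over both days was 1.26 (SE 0.56, edgeR adjusted p = 0.297), 1.42 (SE 0.41, adjusted p = 0.0574) with the letter block, and 0.96 (SE 0.39, adjusted p = 0.136) without D. Adamtsl2 overlaps it on the opposite strand and had at most 4 counts per library.

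Mymx (ENSMUSG00000079471, chr17:45911239-45913028, minus strand), whose micropeptide acts with myomaker in fusion, had 2, 3, 0 and 2 counts in control KD 0 day A to D, 4 and 2 in control KD 1 day C and D, 3, 5, 2 and 1 in YBX3 KD 0 day A to D and 0, 10 and 7 in YBX3 KD 1 day B to D. The 2 highest libraries, YBX3 KD 1 day C and D, were also the 2 highest for Myog among the 1 day libraries, and the groups overlapped. It did not pass the filter and was not tested.

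**Figure D4:**
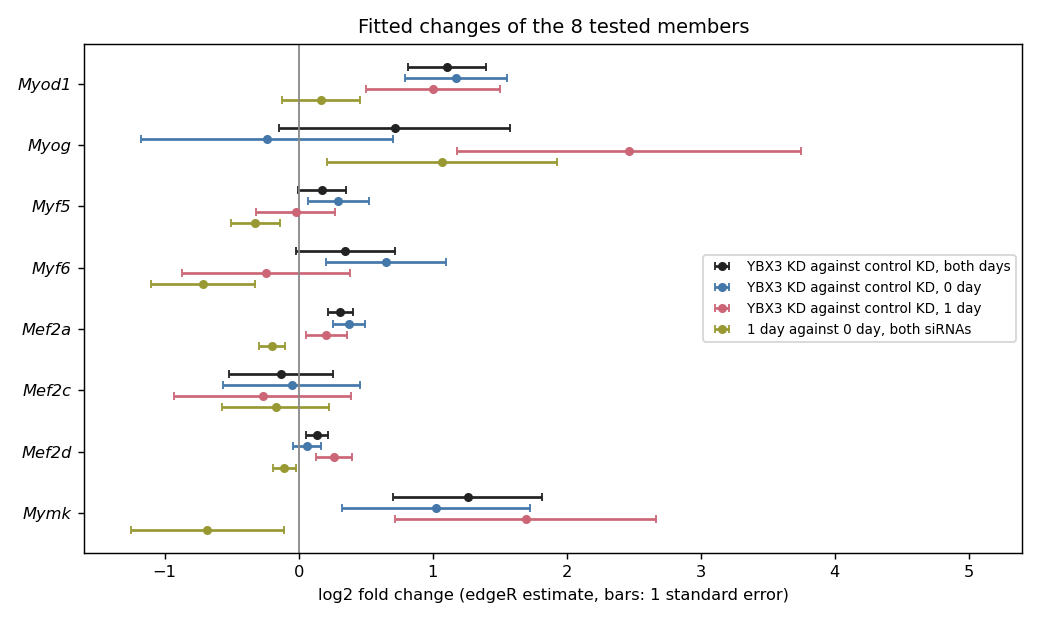
Log2 fold changes of the 8 tested genes from edgeR with bars of 1 SE, for YBX3 KD against control KD over both days, at 0 day and at 1 day, and for 1 day against 0 day. Myod1 lies near 1 in each of the 3 siRNA comparisons, and Myog has the widest bars.

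Within proliferating myoblasts (0 day, 4 against 4 libraries), 0 of the 8 tested genes of the 10 was called with edgeR, against 0.0297% of all tested genes. DESeq2 and limma-voom called 0 of the 8 as well. At an unadjusted p under 0.05, 2 of the 8 (Mef2a and Myod1) stood out, against 11.0% of all tested genes. Myod1 stood at a log2 fold change of 1.17 (SE 0.38, edgeR adjusted p = 0.25) and Mef2a at 0.38 (SE 0.12, adjusted p = 0.235). Mymk had 1.03 (SE 0.70), Myf6 0.65 (SE 0.45), Myf5 0.29 (SE 0.23), Mef2d 0.063 (SE 0.10), Mef2c −0.051 (SE 0.51) and Myog −0.24 (SE 0.94).

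Within differentiating myoblasts (1 day, 2 control KD and 3 YBX3 KD libraries), edgeR called 0 of the 8 tested genes of the 10 and 0 of all tested genes (0%). DESeq2 called 25 genes and limma-voom 0, none of them among the 8. No gene of the 8 had an unadjusted p under 0.05, against 7.79% of all tested genes. Myog had the largest log2 fold change, 2.46 (SE 1.28, edgeR adjusted p = 0.697), ahead of Mymk at 1.69 (SE 0.98) and Myod1 at 1.00 (SE 0.50). Leaving out control KD 1 day C, D or YBX3 KD 1 day C moved these: Myog ran from 0.51 to 4.64, Mymk from 0.83 to 4.57 and Myod1 from 0.43 to 2.01, all above 0. Mef2d had 0.26 (SE 0.13), Mef2a 0.20 (SE 0.15), Myf5 −0.023 (SE 0.29), Myf6 −0.25 (SE 0.63) and Mef2c −0.27 (SE 0.66).

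The difference of the siRNA effect between days was tested as an interaction. edgeR called 0 of the 8 tested genes of the 10 and 0 of all tested genes (0%). At an unadjusted p under 0.05 there were 0 of the 8 and 2.64% of all tested genes, and neither DESeq2 nor limma-voom called any of the 8. The largest difference was that of Myog, 2.70 (SE 1.57, edgeR adjusted p = 1), and that of Myod1 was −0.17 (SE 0.62). For Myf5, YBX3 KD was higher than control KD in all 4 pairs at 0 day and lower in both pairs at 1 day, and the interaction was −0.32 (SE 0.37, adjusted p = 1). How common such pairs are among all tested genes was not computed.

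The third question was which of these genes moved with 1 day of differentiation medium, with the siRNA as a term. edgeR called 0 of the 8 tested genes of the 10 and 0 of all tested genes (0%), and DESeq2 and limma-voom called 0 of the 8. At an unadjusted p under 0.05 there were 0 of the 8, against 2.83% of all tested genes. Steps from 0 day to 1 day within a letter and siRNA could be formed for 5 pairs of libraries. Mef2a was lower at 1 day in all 5 (ratios 0.637 to 0.976), as were 2.90% of tested genes, with a log2 fold change of −0.20 (SE 0.095, edgeR adjusted p = 1). Myf5, Mymk, Myf6, Mef2d and Pax7 were lower in 4 of 5, and the share of all tested genes lower in 4 of 5 was not computed. Pax7 had at most 9 counts per library. Of the 8 tested genes 2 had a log2 fold change above 0, with a median of −0.19 against 0.0020 over all tested genes. Myf6, among those below 0, passed the filter through 2 libraries of 0 day, so its direction here carries that selection. Myog, the marker of early differentiation, was higher in 3 of 5, by 2.20-fold in control KD C, 19.4-fold in YBX3 KD C and 2.54-fold in YBX3 KD D. Its log2 fold change was 1.07 (SE 0.86, adjusted p = 1) with all libraries and −0.27 without YBX3 KD 1 day C. Myod1 was higher in 3 of 5 steps, with a log2 fold change of 0.16 (SE 0.29). Of the 30 tested differentiation genes described next, 10 were above 0 at 1 day against 0 day, with a median of −0.13.

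Genes that the myogenic factors act on are described by counts over lists, chosen with earlier results of these data known. Of 36 differentiation genes downstream of the factors (contractile, calcium-handling and receptor genes, with Mymk and Mymx among them), 30 were tested, and 29 of the 30 had a log2 fold change above 0 in YBX3 KD over both days. The median was 0.56, against 8e-04 over all tested genes. Rbm24, an RNA-binding protein of muscle, passed the filter only through YBX3 KD 1 day C and D (16 and 17 counts), so its direction carries that selection. Without it 28 of 29 were above 0, with a median of 0.55. None was called with edgeR, DESeq2 or limma-voom, 5 of the 30 had an unadjusted p under 0.05, against 15.6% of tested genes, and 1 had an adjusted p under 0.05 (Chrna1, a subunit of the acetylcholine receptor, log2 fold change 0.37, adjusted p = 0.0449), against 2.34% of tested genes. Chrna1 had 279.0 ± 27.7 CPM (SD, n = 4) in control KD 0 day and 358.8 ± 18.7 (SD, n = 4) in YBX3 KD 0 day. Chrng, the fetal receptor subunit, stood at 1.23 (SE 0.44, adjusted p = 0.174). At 1 day 29 of 30 were above 0 with a median of 1.08 (28 of 29 and 1.07 without Rbm24), and at 0 day 22 of 30 with a median of 0.20.

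These medians moved when single libraries were left out. Without YBX3 KD 1 day C, the library with the highest Myog, the median was 0.18 over both days (21 of 29 tested above 0) and 0.12 at 1 day (19 of 29). Without control KD 1 day D it was 0.32 over both days and 0.63 at 1 day. Without control KD 1 day C it was 2.10 at 1 day, and without all D libraries it was 0.37 over both days. The filter was rerun each time, so the genes behind the median changed too. There were 32 tested with control KD 1 day C or D left out, and 34 without the D libraries. Of the 30 tested differentiation genes, 20 had their highest level in YBX3 KD 1 day C, as did 4.61% of all tested genes. The contractile gene Acta1 (34.2 CPM), the creatine kinase gene Ckm (2.52 CPM) and the embryonic myosin Myh3 (1.26 CPM) were among the 20. Of the other 10, 4 were highest in YBX3 KD 1 day D, 3 in YBX3 KD 0 day A, 2 in YBX3 KD 0 day B and 1 in control KD 0 day B, with Des at 54.8 CPM in YBX3 KD 1 day D and Chrna1 at 385.5 CPM in YBX3 KD 0 day B. The summed level of the 34 differentiation genes other than Mymk and Mymx was 744.1 CPM in YBX3 KD 1 day C, and 409.1 to 730.6 CPM in the other 12 libraries. Abundant genes weigh most in this sum, Chrna1 alone having 288.8 CPM in YBX3 KD 1 day C.

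**Figure D5:**
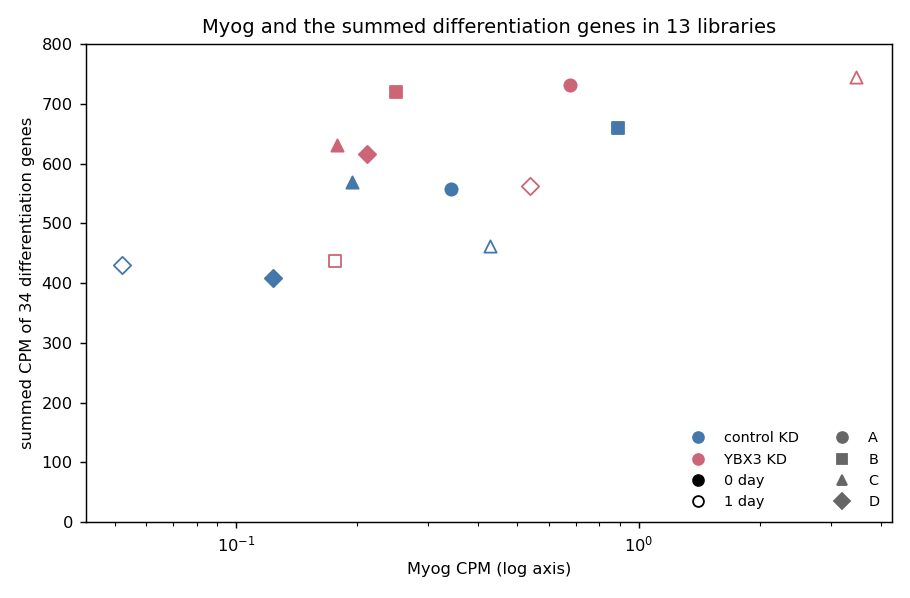
Myog CPM (log axis) against the summed CPM of 34 differentiation genes in the 13 libraries; colours give the siRNA, filled markers 0 day, open markers 1 day and shapes the letter. YBX3 KD 1 day C, at 3.46 CPM of Myog and 744.1 CPM of the summed genes, lies to the right of all others.

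The partners and regulators of the factors showed few differences over both days, and edgeR called none of them, while DESeq2 called 2 (Tead4 and Cdh2) and limma-voom these and Dysf, a membrane repair gene (0.63, edgeR adjusted p = 0.17). Over all 16848 tested genes edgeR called 19, DESeq2 188 and limma-voom 185. An adjusted p under 0.05 in edgeR was found for 2.34% of tested genes. Values in parentheses below are log2 fold changes and edgeR's adjusted p. Of 14 tested bHLH partners and inhibitors, 9 had a log2 fold change above 0 (median 0.081). The 2 smallest p were those of Tcf3, an E protein that dimerises with the myogenic bHLH factors (−0.23, adjusted p = 0.101), and Bhlhe41 (0.30, adjusted p = 0.481). Of 18 MEF2 cofactors and regulators, 8 were above 0 (median −0.052), led by the calcineurin subunit Ppp3cb (−0.17, adjusted p = 0.106) and the p38 kinase Mapk12 (−0.26, adjusted p = 0.292). Of 16 tested upstream factors, 9 were above 0 (median 0.061), and Tead4, a TEAD factor, was lower in YBX3 KD (−0.44, adjusted p = 0.0368), ahead of Pitx3 (−0.68, adjusted p = 0.202), which passed the filter through control KD libraries only.

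Of 23 tested accessory fusion and adhesion genes, 14 were above 0 (median 0.030). Stab2, among the 23, was past the filter's cutoff in 5 YBX3 KD libraries and 1 control KD library. It passed only through YBX3 KD, so its direction carries that selection. Cdh2 (N-cadherin) was higher in YBX3 KD by 0.49 (adjusted p = 0.004), with 226.2 ± 16.6 CPM (SD, n = 4) against 153.7 ± 7.63 (SD, n = 4) at 0 day, and Itgb1, the beta-1 integrin, by 0.29 (adjusted p = 0.0394). Of 13 tested satellite cell and myoblast markers, 9 were above 0 (median 0.082), with Cxcr4 at 0.57 (adjusted p = 0.0444) and the receptor gene Met at 0.18 (adjusted p = 0.0818). Of 9 tested markers of other lineages, 6 were above 0 (median 0.11), and none had an unadjusted p under 0.05. Its 2 smallest p belonged to Runx2 (0.16, adjusted p = 0.469) and Sox9 (−0.38, adjusted p = 0.602).

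The genes whose log2 CPM followed each of the 8 tested genes most closely over the 13 libraries are given as a description, since the libraries share letters, siRNAs and depth. For Myod1 these were Il15ra, 9230114K14Rik and Dchs2 (Pearson's r 0.96 each), and for Myog Srl (0.93), Gabra3 (0.90) and Igtp (0.87), each with its highest level in YBX3 KD 1 day C. For Myf5 they were Timp1 (0.97), Pcsk7 (0.96) and Alox5 (0.95), and for Myf6 Nhej1 (0.81), Krtcap3 (0.79) and Ganab (0.78), the lowest of these values. For Mef2a they were Lrtm1 (0.93), Ganc (0.93) and Apol6 (0.92), for Mef2d Camta2 (0.94), Slc39a13 (0.93) and Sned1 (0.93), and for Mef2c Virma (0.98) with Tnpo1 and 2610021A01Rik (0.97 each). For Mymk they were Atcayos, Ldb3 and Klhl41 (0.94 each), of which Klhl41 is on the list of differentiation genes.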

How the data were processed

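RNAseq libraries of C2C12 cells were prepared by the authors with an Illumina stranded mRNA kit. Per the labels and methods, transcript abundance was estimated with Salmon against GRCm39 and Gencode's canonical transcripts. The version of Salmon, the step from transcripts to genes and its strand setting are not given in the sources used here. The deposited table holds whole numbers per gene, taken here to be the estimated counts of the authors, rounded; the fits used them unchanged. Of 55642 identifiers, 54969 matched GENCODE in the vM39 annotation, from which symbols and positions came.

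Counts were fitted with edgeR 4.0.16 (R 4.3.3) by glmQLFit and glmQLFTest after filterByExpr on the 4 groups, which kept 16848 genes, with TMM factors and Benjamini-Hochberg adjustment over all tested genes. A gene was called at a fold change above 1.3 and an adjusted p under 0.001. The fit over both days had the day or the siRNA as a term, and the others used contrasts of the 4 groups over all 13 libraries. SE is the absolute log2 fold change divided by the square root of F. DESeq2 1.42.0, limma 3.58.1, other filters and factors, blocks by letter or title number and leaving out libraries were alternatives. The procedure was tested on simulated data.

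Replicate letters in the sample descriptions and numbers in the titles disagree at 1 day. Deviations from group means correlated above 0.1 in 16 of 16 pairs of libraries with the same letter (0.117 to 0.73). With the same title number this held for 8 of 16, so letters were taken as pairs for the ratios. The main edgeR fits had no term for the letter, so their p-values leave this pairing out. Fits with the letter as a block are given as alternatives. The labels call the libraries biological replicates and say no more of separate cultures, so p-values measure the spread between these samples. The 10 genes and the lists were chosen with earlier results of these data known. Genes outside the 10 are named by rule: Ybx3, for each list the called genes or, with none, the 2 of smallest p, and the 3 genes most correlated with each tested gene; for the lists this was applied to both days combined. Acta1, Ckm, Myh3, Calcr, Itga7, Cdh15, Vcam1, Des, Rbm24, Stab2, Chodl and Dysf are list genes named outside the rule after their values were seen, and overlapping genes came from the annotation. Windows before transcript starts were read from GRCm39, leaving out chromosome 18, and siRNA strands from the study's list.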

Additional observations from a re-analysis of the deposited data

Results flagged for a closer look

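A library far from the 3 others of its group was found for 2 genes at YBX3 KD 0 day, by the ratio of its gap to the range of 4 libraries (Dixon's 95% value), which chance exceeds in about 1 of 20 groups. The 10 genes, the untested Pax7 and Mymx among them, made 20 sets in the 2 groups of 4. Of these 2 (10%) passed, against 12.4% of 33696 sets over all tested genes, so such libraries were no more frequent among the 10. Myog had 0.68 CPM in replicate A, the highest, with 0.18 to 0.25 CPM in the other 3 (ratio 0.856). Mef2c had 1.86 CPM in replicate D, the lowest, with 4.85 to 5.42 CPM in the other 3 (ratio 0.84), and the control KD 0 day D library, at 1.36 CPM, had a ratio of 0.825.

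The letter pairs of Myf5 differed in direction between the days, and the share of all tested genes with such pairs was not computed. The ratios of YBX3 KD to control KD were 1.08, 1.38, 1.15 and 1.40 in the 0 day pairs A to D and 0.983 and 0.774 in the 1 day pairs C and D. YBX3 KD 1 day B, which has no control of its letter, had 54.9 CPM, above control KD 1 day C (48.6) and D (44.1). The log2 fold change at 1 day was −0.023 (SE 0.29). The interaction in edgeR was −0.32 (SE 0.37, adjusted p = 1), so the difference itself did not pass the test, and its sign at 1 day was reversed without YBX3 KD 1 day D (0.15) and without control KD 1 day C (0.051).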

How the results depend on the processing

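Of 119 counts of called genes among the 10, over 5 comparisons and 26 alternatives where they could be fitted, 118 stayed at 0. With DESeq2 and the replicate block by letter 1 was called over both days (Myod1, 1.06, adjusted p = 7.67e-05). Called genes over the whole table depended on the tool: over both days edgeR called 19, edgeR with the replicate block by letter 23, limma-voom 185, DESeq2 188 and DESeq2 with the letter block 427, and at 0 day these were 5, 8, 43, 106 and 252. At 1 day DESeq2 called 25 and with the letter block 158, for the difference 1 and 11, and for 1 day against 0 day 0 and 3, where the other 3 fits called 0. Apart from Myod1, the letter block changed no call among the 10. The cause was not tested. Of 930 log2 fold changes of the 8 tested genes, 890 kept their direction and their side of the threshold, 39 were reversed (26 of them with 1 library left out) and 1 was newly called. No reversed value passed the calling rule.

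Apart from leaving out 1 library, Mef2c was reversed for 1 day against 0 day with the replicate block by letter (0.066) and with it in DESeq2 (0.052), for the difference between days with limma-voom (0.29), at 0 day with the replicate block by letter (0.012) and by title number (0.019), and at 1 day with limma-voom (0.16). Myf5 at 1 day was reversed with limma-voom (0.052), the title number block (0.0045) and without the D libraries (0.084), and Mef2d for the difference without the D libraries (−0.011). Myod1 was reversed with the title number block for 1 day against 0 day (−0.049) and for the difference (0.032), and Myog at 0 day with limma-voom (0.062).

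With each library left out in turn, the values that changed sign ranged as follows. For the difference between days Mef2a ran from −0.30 to 0.0013, Mef2c from −0.82 to 0.86, Mymk from −0.20 to 3.56 and Myod1 from −0.75 to 0.85. For 1 day against 0 day Mef2c ran from −0.51 to 0.017, Myod1 from −0.13 to 0.34 and Myog from −0.27 to 1.56. At 0 day Mef2c ran from −0.35 to 0.20, Mef2d from −0.008 to 0.14 and Myog from −0.85 to 0.55. At 1 day Mef2c ran from −0.87 to 0.80, Myf5 from −0.17 to 0.15 and Myf6 from −0.50 to 0.079. Over both days Mef2c ran from −0.32 to 0.15 and Myog from −4e-04 to 1.35. Adjusted p over the alternatives was 7.67e-05 to 0.164 for Myod1, 0.00259 to 0.226 for Mef2a and 0.00352 to 0.44 for Mymk over both days. The median of the differentiation genes, recomputed by choices made after the data had been seen, was 0.37 over both days without the D libraries. With single libraries left out it was 0.18 to 0.79 over both days and 0.12 to 2.10 at 1 day. The filter was rerun each time, so these medians are not all over the same genes. Leaving out Rbm24, also chosen after the data had been seen, gave 0.55 and 1.07.

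Pax7, Mymx and Myf6 had at most 26 counts per library, which limits what their levels can show. Control KD at 1 day had 2 libraries, and a lone library left there was assumed to vary like the other groups.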
